A study of Drosophila melanogaster with 2 samples.

Results

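Single Drosophila melanogaster embryos of the inbred wild-type line DGRP-737, up to 3 h old, were profiled by a modified CEL-Seq2 protocol, and 6 genes of the EGF receptor pathway are described here: the ligands spi and vn, the ligand-processing genes S and rho, the receptor gene Egfr and the inhibitor gene aos. They were looked up by symbol from a list drawn up with earlier results of these data known, and all 6 were among the 7629 genes of the table of 84 embryos ordered in pseudo-time, that is, by how far each transcriptome has advanced. Each embryo was 1 replicate. The embryos fell into clusters 1, 2, 3, 4, 5, 6, 7 and 9 along pseudo-time, with 29, 11, 6, 3, 9, 7, 10 and 9 embryos. They came from 2 cages (47 from cage A and 37 from cage B) and from 3 collection intervals of 0-1 h (28 embryos), 1-2 h (33 embryos) and 2-3 h (23 embryos), read here from the first digit of the embryo names. The embryos were untreated; 30 were typed as female and 31 as male by PCR, and 23 of the youngest were not typed.

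In Drosophila, Spitz, the product of spi, is made as a membrane-bound precursor of the main activating ligand. Star, the product of S, carries it out of the endoplasmic reticulum, and the intramembrane protease Rhomboid, the product of rho, cuts it so that it can be secreted and bind the receptor. Vein, the product of vn, is a neuregulin-like ligand that is secreted without this cut, and Argos, the product of aos, is a secreted protein that binds Spitz and limits signaling. In the early embryo the pathway is known for patterning the ventral ectoderm, where rho is transcribed in lateral stripes under the control of the Dorsal gradient.

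Values are unique molecular identifier (UMI) counts, in which each captured molecule is counted once. The UMIs of the table summed to between 274425 and 2104120 per embryo (median 931566), and between 5933 and 7389 genes were detected in an embryo. A normalized count is the UMI count of a gene scaled to the embryo with the smallest total. Over the 84 embryos, spi had 23655 UMIs, S 33499, rho 4456, Egfr 2785, vn 1111 and aos 461. spi, S and vn were detected in 84 embryos, rho in 69, Egfr in 64 and aos in 52. Of the markers used to check the tissue, the maternal genes bcd and nos were lower in cluster 5 than in cluster 1 and the zygotic genes eve, ftz, sc and scw were higher, by the edgeR test used for the clusters; the maternal gene osk (log2 fold change -1.28, SE 0.76, edgeR padj = 0.115) was not called. None of the 11 follicle and eggshell genes was in the table. In the raw counts of the first library they summed to 85 UMIs over the 62 barcodes with at least 250000 UMIs, 4 of them (Cp36, Cp15, Cp16 and Cp19) at 0 UMIs.

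On release 6 of the Drosophila assembly, spi lies on chromosome 2L from 19567900 to 19577315 on the minus strand and S on 2L from 1049674 to 1077815 on the minus strand. rho lies on 3L from 1463811 to 1468944 on the plus strand, vn on 3L from 5813338 to 5845664 on the minus strand and aos on 3L from 16470386 to 16483650 on the minus strand. Egfr lies on 2R from 21522420 to 21559977 on the plus strand. These spans cover whole genes with their exons, introns and untranslated regions, and none is X-linked. The rho span overlaps Ptp61F on the opposite strand, a gene with 95697 UMIs over the same embryos, Egfr overlaps CG30283 (130 UMIs), and aos overlaps CG33158 (298 UMIs). Whether counting used the strand is not given in the sources used here, so reads from such overlaps cannot be told apart.

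**Figure D1:**
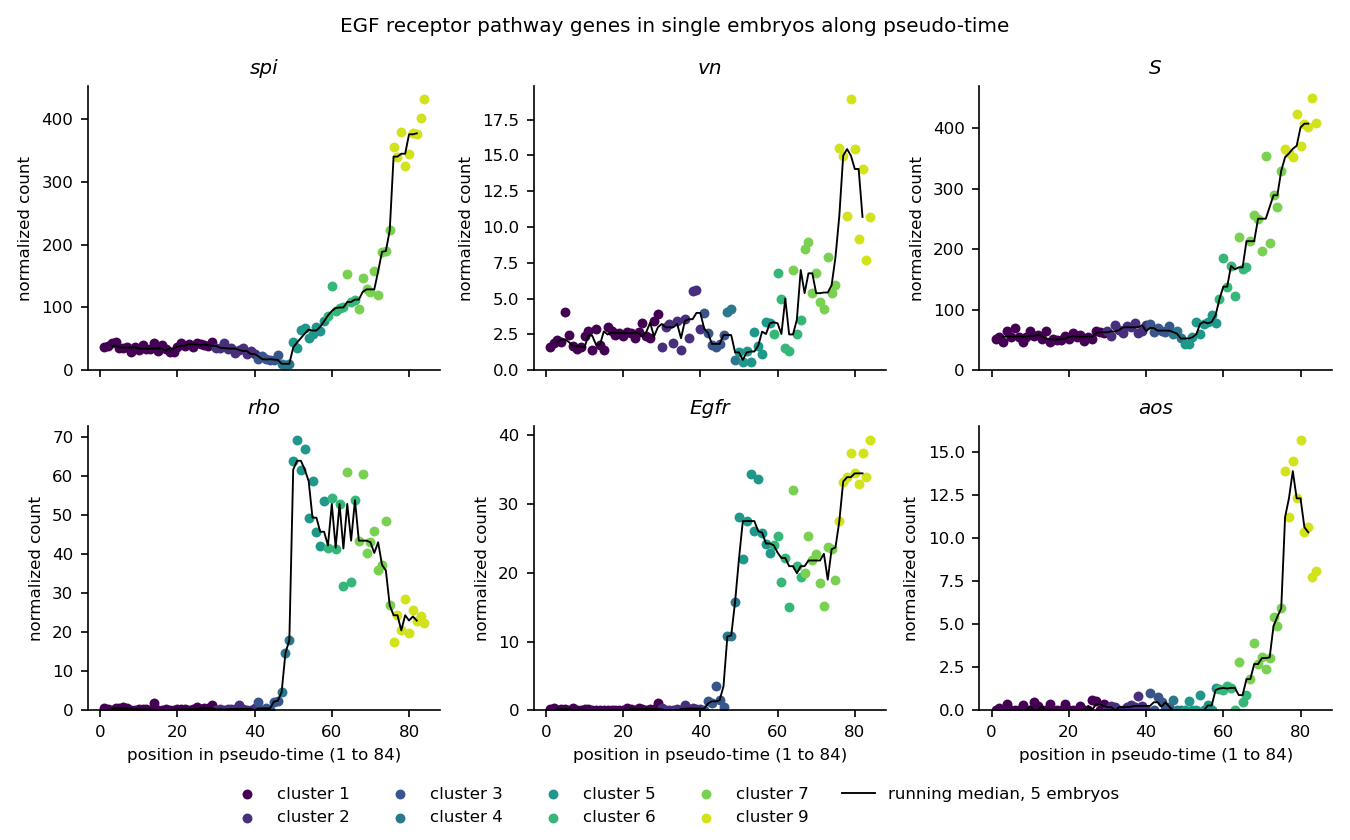
Normalized count of each of the 6 genes (y axis, linear, a scale per gene) in each of the 84 embryos against its position in pseudo-time (x axis), coloured by cluster, with a running median over 5 embryos as a line. rho and Egfr are near 0 before cluster 3, spi dips in cluster 4 where its 3 embryos lie between 8.93 and 10.2, and aos is at most 1.43 in every embryo of clusters 1 to 6.

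The 6 genes followed 4 courses. rho and Egfr were close to 0 in the youngest embryos and rose together in clusters 4 and 5; thereafter rho was lower in cluster 9, while Egfr reached its highest mean there. spi was present from the start, had its lowest mean in cluster 4 and rose at cluster 5 and again at cluster 9. S was present from the start, lay higher late in cluster 5 than early in it, and was called higher at cluster 6. vn, at a low level throughout, and aos, near 0 until cluster 5, reached their highest means in cluster 9. The edgeR quasi-likelihood F test was run on the UMI counts of 7619 genes, and a gene was called higher or lower where its adjusted p (padj) was below 0.01 and its log2 fold change was above 1 or below -1. The clusters are the authors' own and rest on these expression values; padj between them therefore describes how far apart the clusters lie and is too small as a test of time, whereas the collection interval was set before sequencing. In whole embryos, more expressing nuclei and more RNA per nucleus cannot be told apart.

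**Figure D2:**
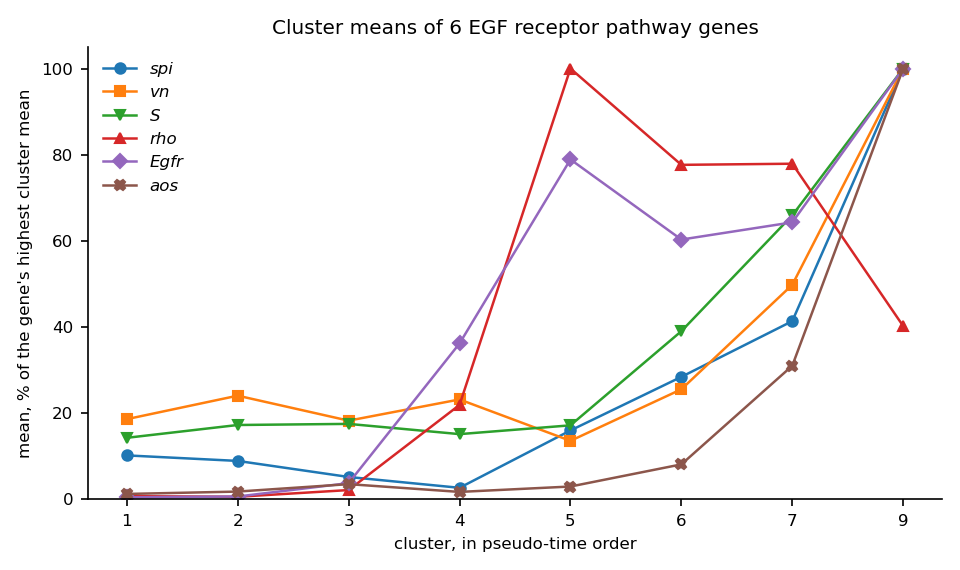
Mean normalized count of each gene in each cluster (x axis, pseudo-time order) as a percentage of that gene's highest cluster mean (y axis). rho is at 100% in cluster 5 and 40.2% in cluster 9, Egfr is at 78.9% in cluster 5, and in cluster 5 spi is at 15.9%, S at 17.1%, vn at 13.5% and aos at 2.92%.

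Among the ligands, spi averaged 37.6 ± 4.79 normalized counts in the embryos of cluster 1 and 32.8 ± 5.22 in those of cluster 2 (SD over the embryos of each cluster). Its mean was 19.02 ± 3.38 in cluster 3 and lowest in cluster 4, at 9.71 ± 0.678. Cluster 5 embryos averaged 59.1 ± 13.1, cluster 6 embryos 105.2 ± 15.5, cluster 7 embryos 153 ± 38.1 and cluster 9 embryos 371 ± 32.9. The highest mean was 38.2 times the lowest. In the early clusters the embryos did not overlap at 2 steps: cluster 3 lay between 16.3 and 24.5 (median 17.2) and cluster 2 between 25.6 and 43.6 (median 34.3), and the cluster 4 embryos stood at 10.2, 8.93 and 10.0. The log2 fold change was -0.73 (SE 0.13, edgeR padj = 0.000114) between clusters 3 and 2 and -0.90 (SE 0.23, edgeR padj = 0.0033) between clusters 4 and 3, so neither step passed the fold threshold. The running median over 5 embryos was lowest at position 47 and passed 20% of its later maximum at position 59, 10% at position 51 and 50% at position 75.

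From cluster 5 on, spi was higher. All 9 embryos of cluster 5, between 36.1 and 77.95 normalized counts of spi (median 63.1), lay above the 3 of cluster 4, with a log2 fold change of 2.75 (SE 0.24, edgeR padj = 8.55e-09). All 7 embryos of cluster 6 (87.1 to 135, median 99.9) were above all of cluster 5, but the change of 0.90 (SE 0.13, edgeR padj = 2.44e-06) was below the fold threshold. Clusters 7 and 6 overlapped, with 6 of 10 embryos of cluster 7 above cluster 6. The 9 embryos of cluster 9 lay between 326 and 432 (median 376), above the cluster 7 embryos at 97.8 to 223 (median 150), with a log2 fold change of 1.17 (SE 0.11, edgeR padj = 6.58e-11). Between clusters 5 and 1, on either side of the low cluster 4 values, the log2 fold change was 0.85 (SE 0.09, edgeR padj = 1.42e-12) and was not called.

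vn rested on few molecules and averaged 2.42 ± 0.696 normalized counts in cluster 1 and 1.76 ± 1.08 in cluster 5, its lowest mean. In cluster 9 it averaged 13.03 ± 3.63, in embryos between 7.73 and 18.9 (median 14.1), all above those of cluster 5 at 0.564 to 3.34 (median 1.30). The log2 fold change between clusters 9 and 5 was 2.96 (SE 0.26, edgeR padj = 5.73e-12). No step between neighboring clusters was called for vn in the comparison of 2 clusters at a time; the change was 1.12 (SE 0.39, edgeR padj = 0.0305) between clusters 6 and 5, 0.84 (SE 0.28, edgeR padj = 0.0443) between clusters 7 and 6, and 0.91 (SE 0.18, edgeR padj = 4.97e-05) between clusters 9 and 7. With all 84 embryos in 1 fit, the steps at cluster 6 (1.16, edgeR padj = 0.00366) and cluster 9 (1.02, edgeR padj = 6.97e-07) were called.

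Of the processing genes, S had the steadiest early level, with means between 55.9 and 68.6 normalized counts in clusters 1 to 5. Its later means were 153 ± 26.995 for cluster 6, 259 ± 52.6 for cluster 7 and 393 ± 32.99 for cluster 9. All 7 embryos of cluster 6 (117 to 186, median 167) lay above all 9 of cluster 5 (43.7 to 90.7, median 76.5), with a log2 fold change of 1.25 (SE 0.14, edgeR padj = 8.24e-08). All 10 embryos of cluster 7 (197 to 354, median 254) lay above cluster 6 as well, by 0.67 on the log2 scale (SE 0.13, edgeR padj = 0.00118), short of the fold threshold. The 2 genes whose products act in turn on Spitz were called at different steps: S was called between clusters 6 and 5, and rho between clusters 4 and 3 and between clusters 5 and 4; the difference between the 2 genes was not tested.

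rho had 43 UMIs in the 29 embryos of cluster 1 and 17 in the 11 of cluster 2, with means of 0.388 ± 0.427 and 0.305 ± 0.375 normalized counts. In cluster 3 the 6 embryos lay between 0 and 2.45 (median 1.25). The 3 embryos of cluster 4 stood at 4.64, 14.7 and 17.9 in the order of pseudo-time, all above cluster 3, with a log2 fold change of 3.35 (SE 0.51, edgeR padj = 3.71e-06). In cluster 5 the 9 embryos lay between 42.2 and 69.4 (median 58.8), 4.57 times the cluster 4 mean (log2 fold change 2.44, SE 0.29, edgeR padj = 4.09e-07) and 147 times the cluster 1 mean. The running median was highest at position 51, early in cluster 5.

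After cluster 5, the mean of rho was 44.1 ± 9.67 normalized counts over cluster 6 embryos, 44.3 ± 10.6 over cluster 7 embryos and 22.9 ± 3.33 over cluster 9 embryos. The 9 embryos of cluster 9 (17.4 to 28.6, median 23.001) were all below the 9 of cluster 5, with a log2 fold change of -1.39 (SE 0.13, edgeR padj = 9.00e-12). Against cluster 7 (26.9 to 61.1, median 43.3), 8 of the 9 were below every embryo, and the log2 fold change of -1.07 (SE 0.13, edgeR padj = 2.53e-08) lay close to the fold threshold. It was -0.97 when the embryos were scaled by their totals, and the call was then lost.

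Egfr, the only receptor of its family in Drosophila, had 18 UMIs in cluster 1 and 11 in cluster 2. In cluster 3 the embryos lay between 0 and 3.50 normalized counts (median 1.14) and in cluster 2 between 0 and 0.808 (median 0.229), a log2 fold change of 2.58 (SE 0.57, edgeR padj = 0.00177) on 27 and 11 UMIs, which limma on log2(normalized count + 1) did not call (padj = 0.0291). The 3 embryos of cluster 4 stood at 10.7, 10.9 and 15.8, all above cluster 3 (log2 fold change 3.11, SE 0.40, edgeR padj = 2.43e-07). Cluster 5 (21.99 to 34.4, median 26.03) lay above cluster 4 in all 9 embryos, by 1.31 on the log2 scale (SE 0.21, edgeR padj = 2.48e-05). Cluster 6 embryos then averaged 20.8 ± 3.51 normalized counts of Egfr, cluster 7 embryos 22.2 ± 4.56 and cluster 9 embryos 34.5 ± 3.44. Between clusters 9 and 5 the embryos overlapped and the change of 0.28 (SE 0.11, edgeR padj = 0.0254) was not called.

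aos was the last of the 6 to appear. The 58 embryos of clusters 1 to 5 held 41 UMIs of it in all, and no cluster mean among them exceeded 0.403 normalized counts. Embryos of cluster 6 averaged 0.937 ± 0.519, those of cluster 7 3.60 ± 1.39 and those of cluster 9 11.6 ± 2.77. All 10 embryos of cluster 7 (1.81 to 5.93, median 3.06) lay above all 7 of cluster 6 (0 to 1.43, median 1.18), with a log2 fold change of 1.78 (SE 0.35, edgeR padj = 0.00145). All 9 of cluster 9 (7.73 to 15.7, median 11.2) lay above cluster 7, by 1.55 (SE 0.19, edgeR padj = 2.59e-08). Cluster 9 held 276 UMIs of aos and cluster 5 held 5, and the log2 fold change of 5.61 (SE 0.39, edgeR padj = 1.84e-14) depends on how counts near 0 are treated.

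By the share of tested genes called in each comparison, the 6 genes can be set against the background. Between clusters 2 and 1, edgeR, DESeq2 and limma called 0 of the 6, where 1.01% of all genes were called higher and 3.85% lower, and 3 of the 6 (spi, S and vn) had an unadjusted p below 0.05 in edgeR. Between clusters 3 and 2, 1 gene (Egfr) was called higher, against 1.23% of all genes. Between clusters 4 and 3 it was 2 genes (rho and Egfr), against 2.61%. Between clusters 5 and 4 it was 3 genes (spi, rho and Egfr), against 4.38%. Between clusters 6 and 5 it was 1 gene (S), against 3.79%, and between clusters 7 and 6 it was 1 gene (aos), against 0.984%. Between clusters 9 and 7, 2 genes (spi and aos) were called higher, against 21.1%, and 1 (rho) lower, against 15.8%. Between clusters 5 and 1, 2 genes (rho and Egfr) were called higher, against 18.6%, and between clusters 9 and 5, 4 genes (spi, S, vn and aos) were higher, against 29%, and 1 (rho) lower, against 22.4%. In the first of these 2 wide comparisons 1415 genes were called higher and 2499 lower; scaling by embryo totals gave 843 and 2634, and the median log2 fold change of all genes was 0.13 with TMM factors and -0.05 with totals. Between clusters 7 and 6 the split was 75 higher and 91 lower, and 110 and 62 with totals.

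The genes that were not called had the following log2 fold changes in edgeR. In cluster 2 against cluster 1, spi stood at -0.22 (SE 0.07), rho at -0.16 (SE 0.46), S at 0.25 (SE 0.06), Egfr at 0.41 (SE 0.47), vn at 0.35 (SE 0.17) and aos at 0.37 (SE 0.52). In cluster 3 against cluster 2, rho stood at 1.75 (SE 0.65, edgeR padj = 0.0753), S at 0.08 (SE 0.08), vn at -0.50 (SE 0.32) and aos at 0.83 (SE 0.68). rho thus exceeded the fold threshold at the step where Egfr was called, but not with padj. In cluster 4 against cluster 3, S stood at -0.13 (SE 0.16), vn at 0.73 (SE 0.45) and aos at -0.39 (SE 1.12), and in cluster 5 against cluster 4, S at 0.32 (SE 0.21), vn at -0.87 (SE 0.49) and aos at -0.21 (SE 1.10). In cluster 6 against cluster 5, rho stood at -0.29 (SE 0.13), Egfr at -0.31 (SE 0.13) and aos at 2.16 (SE 0.68, edgeR padj = 0.0162). aos was called at that step only with all 84 embryos in 1 fit (2.26, edgeR padj = 0.0045). In cluster 7 against cluster 6, spi stood at 0.45 (SE 0.12), rho at -0.09 (SE 0.14) and Egfr at -0.000146 (SE 0.13), and in cluster 9 against cluster 7, S at 0.49 (SE 0.11) and Egfr at 0.52 (SE 0.11). In cluster 5 against cluster 1, S stood at 0.47 (SE 0.09), vn at -0.36 (SE 0.24) and aos at 0.54 (SE 0.72).

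In clusters 1, 2, 5, 6, 7 and 9 embryos of a cluster differed by more than counting error for both abundant genes, spi and S. In cluster 1 spi varied by 12.7% and S by 11.3%, with counting errors of 9.16% and 7.49%. In cluster 2 S varied by 9.99%, with a counting error of 5.84%, and spi by 15.9%, again above its counting error. In cluster 5 spi varied by 22.2% and S by 25.7%, with counting errors of 8.83% and 8.31%. In cluster 6 spi varied by 14.7% and S by 17.6%, with counting errors of 6.82% and 5.59%. In cluster 7 the coefficient of variation of spi was 24.9%, where counting error alone gives 4.94%, and that of S was 20.3%, where counting error gives 3.88%. In cluster 9 spi varied by 8.88% and S by 8.396%, with counting errors of 3.30% and 3.22%. rho varied by 23.9% in cluster 7 and by 14.6% in cluster 9, with counting errors of 9.26% and 13.5%, and Egfr in cluster 9 varied by 9.98%, where counting error gives 10.8%. Spread beyond counting was therefore not detectable for Egfr in cluster 9 at this depth, nor for spi over the 3 embryos of cluster 4 (6.98%, with a counting error of 21.9%). S in cluster 3 varied by 8.42%, with a counting error of 8.17%. 1 embryo of cluster 7 stands among those of cluster 6 in pseudo-time, at position 64.

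**Figure D3:**
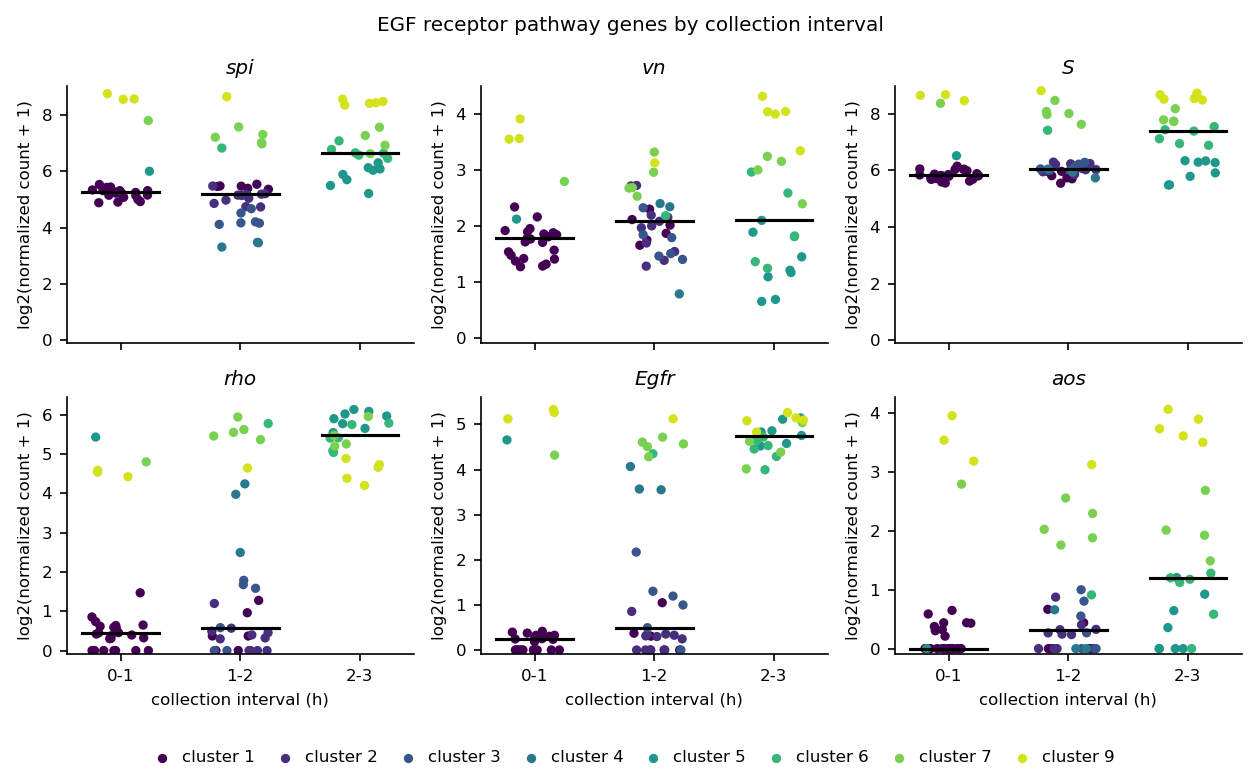
Value of each gene, as log2(normalized count + 1) (y axis), in each embryo by collection interval (x axis, in h), coloured by cluster, with the median as a bar. In the 2-3 h interval all 23 embryos have rho and Egfr counts, while the other 2 intervals hold embryos near 0 together with embryos of clusters 5 to 9.

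The collection interval, unlike the cluster, does not derive from the expression values. Which embryos remained in each interval did depend on them. The paper left out embryos that their transcriptomes placed beyond 3 h, among them some of the 0-1 h collection. The effect of this choice on the differences between intervals was not tested. The 0-1 h interval held 23 embryos of cluster 1, 1 each of clusters 5 and 7, and 3 of cluster 9. All 3 embryos of cluster 4 came from the 1-2 h interval, and 8 of the 9 embryos of cluster 5 from the 2-3 h interval. Cluster and collection interval thus largely coincide at that step, and their effects there were not tested apart. rho lay between 0 and 42.2 normalized counts (median 0.370) in the 0-1 h embryos, between 0 and 60.6 (median 0.499) in the 1-2 h embryos and between 17.4 and 69.4 (median 43.5) in the 2-3 h embryos. Egfr lay between 0 and 39.3 (median 0.181) in the 0-1 h embryos, between 0 and 33.9 (median 0.409) in the 1-2 h embryos and between 15.0 and 37.4 (median 25.8) in the 2-3 h embryos. Between the 2-3 h and 0-1 h embryos, 2 of the 6 genes were called higher, against 7.9% of all genes: rho with a log2 fold change of 3.18 (SE 0.70, edgeR padj = 3.52e-05) and Egfr with 2.27 (SE 0.68, edgeR padj = 0.00201). Within cage A rho changed by 4.00 (edgeR padj = 0.000464) and Egfr by 2.50 (edgeR padj = 0.0214, not called). Within cage B the values were 2.39 (edgeR padj = 0.0503) and 1.88 (edgeR padj = 0.11), neither of them called.

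The other 4 genes did not pass the fold threshold together with padj between these intervals: spi differed by 0.90 (SE 0.39, edgeR padj = 0.0303), S by 0.93 (SE 0.32, edgeR padj = 0.0066), vn by 0.86 (SE 0.30, edgeR padj = 0.00744) and aos by 1.43 (SE 0.64, edgeR padj = 0.0385). Limma on log2(normalized count + 1) called spi higher as well (1.16, limma padj = 0.000845), so that it called 3 of the 6 genes. Between the 1-2 h and 0-1 h embryos, edgeR, DESeq2 and limma called 0 of the 6, where 0.512% of all genes were called higher and 4.32% lower, and 0 had an unadjusted p below 0.05 in edgeR. The log2 fold changes were -0.44 (SE 0.35) for spi, 1.16 (SE 0.63) for rho, 0.07 (SE 0.29) for S, 0.20 (SE 0.63) for Egfr, 0.01 (SE 0.27) for vn and -0.63 (SE 0.63) for aos. Within cluster 9, spi averaged 349 ± 19.4 in the 5 embryos of the 2-3 h interval and 396 ± 31.4 in the 3 of the 0-1 h interval, and S averaged 385 ± 28.4 in the 2-3 h and 387 ± 30.6 in the 0-1 h embryos. Differences within a cluster were not tested.

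The sexes were compared over the 61 typed embryos with edgeR, testing sex and its interaction with cluster together. 0 of the 6 genes were called at padj below 0.01, where 0.407% of all genes were, and 0 had an unadjusted p below 0.05 (lowest 0.0691, for Egfr). With a sex term of equal size in every cluster, again 0 were called, and the lowest unadjusted p was 0.093, for vn. In cluster 9, spi averaged 387 ± 32.4 in 5 females and 351 ± 22.9 in 4 males, rho 22.96 ± 2.11 in females and 22.7 ± 4.86 in males, and Egfr 35.6 ± 2.697 in females and 33.02 ± 4.11 in males. In cluster 7, S lay between 197 and 289 (median 220) in 7 females and between 257 and 354 (median 330) in 3 males, and the ranges overlapped.

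**Figure D4:**
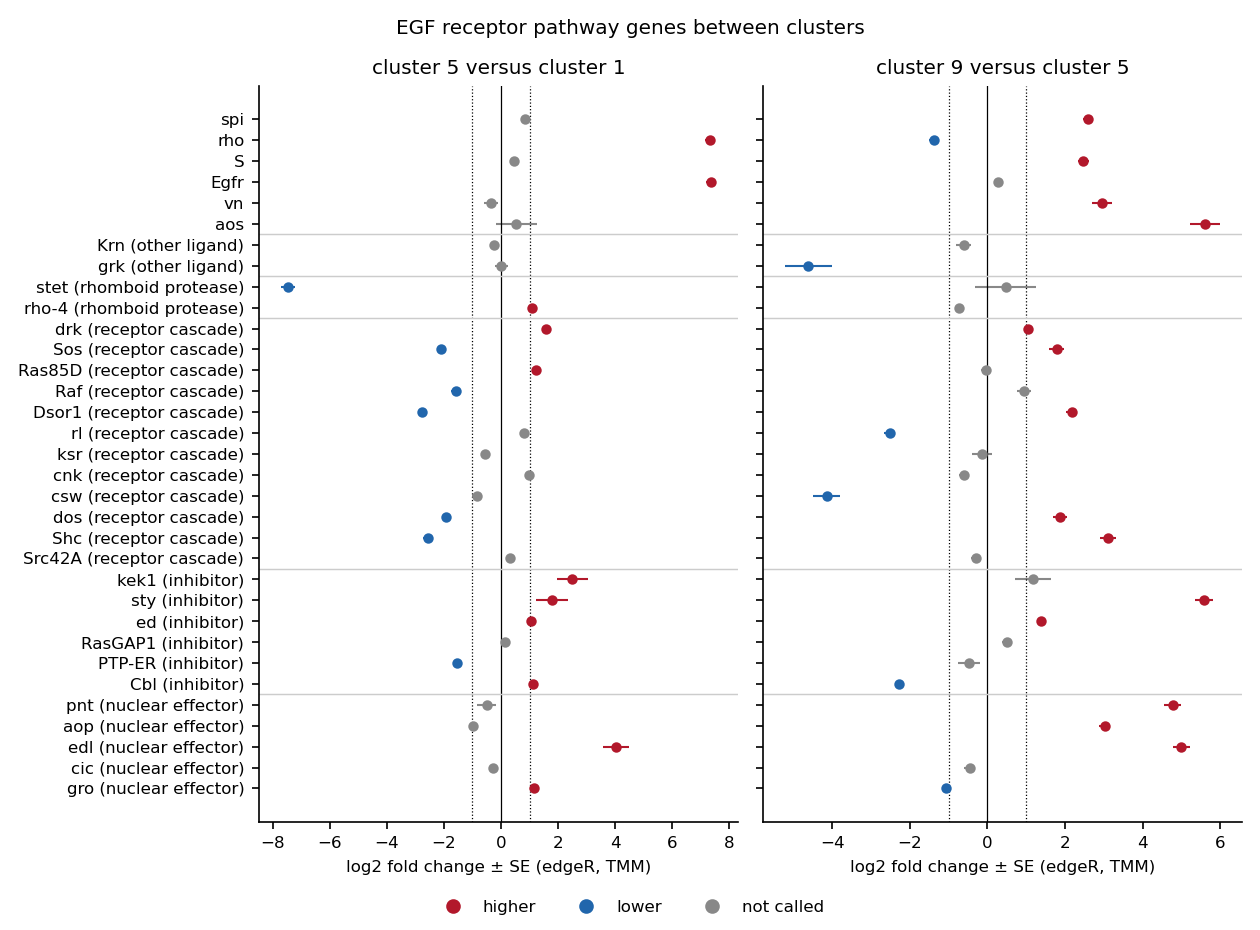
log2 fold change with its SE (x axis, edgeR with TMM factors) of the 6 genes and of the other ligands, rhomboid proteases, receptor cascade, inhibitors and nuclear effectors (y axis) between clusters 5 and 1 (left) and clusters 9 and 5 (right). Red marks genes called higher and blue genes called lower, and dotted lines mark a log2 fold change of 1 in either direction. Egfr and rho stand at the right of the left panel, and aos, sty, edl and pnt at the right of the right panel.

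Around these 6, 34 other genes of the pathway or of rho regulation were listed, of which 33 were tested. Between clusters 5 and 1, 13 of the 33 were called higher and 8 lower (18.6% and 32.8% of all genes), with a median log2 fold change of 0.32 against 0.13 over all genes. Between clusters 9 and 5, 11 were called higher and 6 lower (29% and 22.4% of all genes), with a median of 0.12 against 0.06. Of the other ligands, Krn, whose product resembles Spitz, was not called in either comparison (-0.23, SE 0.12, edgeR padj = 0.0786, and -0.61, SE 0.20, edgeR padj = 0.00596). grk, the ligand gene of the oocyte, averaged 0.0798 ± 0.162 normalized counts in cluster 9 and 3.11 ± 1.67 in cluster 5, a log2 fold change of -4.62 (SE 0.60, edgeR padj = 2.90e-08).

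The rhomboid proteases moved in opposite directions between clusters 5 and 1. stet, known from the germ line, averaged 0.305 ± 0.444 normalized counts in cluster 5 and 52.4 ± 8.33 in cluster 1, a log2 fold change of -7.47 (SE 0.25, edgeR padj = 6.99e-32), while rho changed by 7.32 (SE 0.16, edgeR padj = 1.92e-40). rho-4 was close to the fold threshold at 1.07 (SE 0.08, edgeR padj = 2.98e-18). Between clusters 9 and 5, neither stet (0.47, SE 0.78, edgeR padj = 0.598) nor rho-4 (-0.72, SE 0.10, edgeR padj = 1.99e-07) was called. Over clusters 3, 4 and 5, where rho was called higher, stet had means of 18.5, 2.07 and 0.305 normalized counts in that order.

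Within the receptor cascade, 2 of 12 genes were called higher and 5 lower between clusters 5 and 1, against 18.6% and 32.8% of all genes. The 5 called lower were Dsor1 (the kinase that activates the MAP kinase, -2.76), Shc (an adaptor, -2.57), Sos (the Ras exchange factor, -2.10), dos (an adaptor, -1.93) and Raf (-1.59). The largest rises in mean were those of drk and Ras85D. drk averaged 54.9 ± 9.45 normalized counts in cluster 5 and 21.3 ± 4.30 in cluster 1, and Ras85D 114 ± 21.2 and 55.7 ± 6.06. Cluster 9 had 5 of the 12 genes called higher than cluster 5 and 2 lower, against 29% and 22.4% of all genes. Of the 5 genes that had been lower, Shc (3.11), Dsor1 (2.17), dos (1.88) and Sos (1.78) were among those higher in cluster 9, and Raf (0.93) missed the fold threshold; both comparisons share the cluster 5 embryos. csw, a phosphatase gene, and rl, the MAP kinase gene, were lower in cluster 9 than in cluster 5, by -4.15 and -2.52 on the log2 scale. rl averaged 11.6 ± 2.04 normalized counts in cluster 9 and 63.9 ± 18.4 in cluster 5. The mean of drk was higher again in cluster 9, at 119 ± 13.1.

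Of the 6 other inhibitors, kek1 (2.50, SE 0.55), sty (1.79, SE 0.55), Cbl (1.11, SE 0.08) and ed (1.05, SE 0.07) were called higher between clusters 5 and 1 and PTP-ER (-1.53, SE 0.15) lower, and RasGAP1 (0.15, SE 0.07) was not called. Over all genes, 18.6% were called higher and 32.8% lower. kek1 rested on 12 UMIs in cluster 1 and 17 in cluster 5, and sty on 25 and 20. Cbl and ed lay close to the fold threshold. Between clusters 9 and 5, sty, which encodes the feedback inhibitor Sprouty, changed by 5.595 (SE 0.23, edgeR padj = 2.21e-20), with a mean of 38.3 ± 3.29 normalized counts in cluster 9 and 0.720 ± 0.704 in cluster 5. ed was higher as well (1.39, SE 0.10) and Cbl lower (-2.27, SE 0.09), and kek1 (1.18, SE 0.46, edgeR padj = 0.0218), RasGAP1 (0.50, SE 0.12) and PTP-ER (-0.47, SE 0.28) were not called. The inhibitor aos followed the same order as sty, with cluster 6, 7 and 9 means of 0.937, 3.60 and 11.6 for aos and 2.31, 6.65 and 38.3 for sty.

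Of the nuclear effectors, 3 of 5 were called higher between clusters 9 and 5, against 29% of all genes. They were edl (5.003, SE 0.22), which encodes a protein that binds the ETS factors, pnt (4.78, SE 0.22), the ETS activator of the pathway, and aop (3.03, SE 0.14), the ETS repressor. gro, a co-repressor gene, was lower (-1.07, SE 0.11). pnt averaged 33.2 ± 4.51 normalized counts in cluster 9 and 1.01 ± 0.708 in cluster 5. Between clusters 5 and 1, edl (4.03, SE 0.44) and gro (1.15, SE 0.06) were called higher and 0 of the 5 lower in edgeR, against 18.6% and 32.8% of all genes.

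Of the 6 genes known to act on rho, 4 were called higher between clusters 5 and 1, against 18.6% of all genes: twi (8.86, SE 0.16), an activator, sna (7.67, SE 0.16), its repressor in the mesoderm, vnd (6.82, SE 0.28) and zld (1.89, SE 0.08). dl, the maternal gene for Dorsal, was lower (-4.67, SE 0.18), with a mean of 0.779 ± 0.628 normalized counts in cluster 5 and 21.8 ± 2.85 in cluster 1. In cluster 9 against cluster 5, sim (5.95, SE 0.43) was called higher and dl (-1.90, SE 0.64) lower. These 2 changes depend on how counts near 0 are treated. sim rested on 2 UMIs in cluster 5 and 176 in cluster 9, and dl on 19 and 4. Between clusters 5 and 1, vnd rested on 9 UMIs in cluster 1 and 307 in cluster 5.

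By Pearson's r of log2(normalized count + 1) over the 84 embryos, given as a description since all genes share the embryos, their depth and their course in time, the 3 genes most like Egfr were dpp (0.99), phyl (0.99) and Ppa (0.98). For rho they were Septin5, Nrt and bib (each 0.98), for S ind, E(spl)m5-HLH and side-V (each 0.96), and for spi Mipp1 (0.94), Tmhs (0.94) and side-V (0.93). For aos they were sty (0.95), CG45263 (0.94) and d (0.94). For vn they were lower, with fz2 (0.85), aos (0.85) and CG45263 (0.84). aos was the only 1 of the 6 genes among the 3 most like another of them.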

How the data were processed

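The authors deposited UMI counts per gene and barcode for 2 libraries (STARsolo, which is part of STAR 2.7.8a per the labels; the second library's were not used here) and, for 84 embryos, a normalized value: the UMI count divided by the embryo's total, times the smallest total, plus 0.1. Here 0.1 was subtracted and the deposited counts were recovered from each embryo's step (100% of values whole to within 0.0001). Cluster, pseudo-time position and sex came from the study's supplementary tables. The 7619 genes that reached 3 counts in 5 or more embryos were tested with edgeR 4.0.16 (quasi-likelihood F test, TMM, R 4.3.3) on the embryos of the 2 clusters compared, or all 84 for intervals, and adjusted by Benjamini-Hochberg over all genes. SE is the absolute log2 fold change divided by the square root of F. Alternatives used DESeq2 1.42.0, limma 3.58.1, other scalings, filters and embryos. In a test on simulated data, 200 of 7619 genes were given a 4-fold change, and edgeR recovered 98.5% between clusters 5 and 4. These 200 were drawn from genes with an expected count above 10, and all genes shared 1 fixed dispersion. The recovery therefore does not cover genes as sparse as vn and aos in these clusters. All 6 genes are named in every comparison between clusters or intervals. Of the pathway list, every ligand, rhomboid protease and inhibitor is named, with up to 10 called genes with the largest changes in 2 comparisons. Other list genes were picked for naming after their values were seen, and not all of them are named. Genes and lists were chosen with earlier results of these data known. Older embryos, unfertilized eggs and the library of each embryo were not analysed here.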

Additional observations from a re-analysis of the deposited data

Results flagged for a closer look

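ru, a rhomboid protease gene known from the eye, was listed with the pathway but is not in the table of 84 embryos, which leaves out genes with low counts. In the raw counts of the first library, 29 UMIs of ru were found over the 62 barcodes with at least 250000 UMIs, in 10 of them; a count of 0 over these barcodes would allow up to 3, and the comparison says nothing of the 84 embryos. These barcodes include older embryos and unfertilized eggs and were not assigned to embryos, so no cluster can be given. In none of the 30 groups formed by a gene and a cluster of 6 to 10 embryos did an embryo stand apart by Dixon's gap test.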

How the results depend on the processing

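Of the 20 calls made for the 6 genes between clusters or intervals, 15 held under every alternative run. The number of the 6 called higher was 0, not 1, between clusters 3 and 2 and 1, not 2, between clusters 4 and 3 with limma, 3, not 1, between clusters 6 and 5 with all 84 embryos in 1 fit (which also took in vn and aos), 3, not 2, between clusters 9 and 7 in that fit (with vn), and 1 (cage A), 0 (cage B) and 3 (limma, with spi), not 2, between the 2-3 h and 0-1 h intervals. The number called lower between clusters 9 and 7 was 0, not 1, with totals, limma or all 84 embryos in 1 fit. Of the pathway list, 8 (DESeq2) or 6 (limma) genes, not 13, were higher between clusters 5 and 1, and 9 with totals. Uncalled changes that turned sign were aos between clusters 4 and 3 (-3.23 to 0.15 without each embryo of cluster 4 in turn), aos between clusters 5 and 4 (0.14 with DESeq2, 0.13 with limma, -0.69 to 2.48 without each embryo of cluster 4 in turn), rho between clusters 7 and 6 (9.71e-05 with totals), Egfr between clusters 7 and 6 (0.10 totals, 0.0812 limma, 0.0751 all embryos, 0.00302 cage as covariate), and, between the 1-2 h and 0-1 h intervals, S (-0.0142, cage B), vn (-0.021 with DESeq2 and -0.0184 with its size factors) and aos (0.0400, limma). Over all genes, calls higher between clusters 5 and 1 were 1415, or 843 (totals), 824 (DESeq2 size factors), 707 (DESeq2) and 473 (limma). With limma they were 46, not 77 (clusters 2 and 1), 112, not 199 (4 and 3), 197, not 334 (5 and 4), 144, not 289 (6 and 5), and 43, not 75 (7 and 6; 212 with all embryos), and calls lower 178, not 293, 499, not 777, and 31, not 91. Within cages, 1188 and 171 genes, not 602, were higher between the 2-3 h and 0-1 h intervals, and 74 and 2, not 39, between the 1-2 h and 0-1 h intervals, with 218 and 1, not 329, lower. Other scalings moved the median of all genes by over 0.1 between clusters 5 and 1 (0.13 to -0.08), 5 and 4 (0.04 to -0.06), 7 and 6 (0.06 to 0.16), 9 and 5 (0.06 to 0.20) and the 2-3 h and 0-1 h intervals (-0.01 to -0.13). The causes were not tested. No paired analysis was possible because each embryo was a separate replicate that belonged to only 1 cluster. Cluster 4 holds 3 embryos, and leaving out each in turn left its calls in place. Position estimates moved with the share of the maximum used, for spi between 51 and 75 and for aos between 66 and 76. Clusters came from the same values, and library effects were not tested. For vn and aos, depth limits the early clusters.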
